A study of Mus musculus with 16 samples.

Results

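The nuclear genes of oxidative phosphorylation were described in iWAT (inguinal white adipose tissue, a subcutaneous depot of the groin) across 4 genotypes and 16 libraries. Members were the protein-coding genes of the count table whose symbol starts with Nduf, Uqcr, Atp5, Cox4, Cox5, Cox6, Cox7 or Cox8, together with Sdha, Sdhb, Sdhc, Sdhd and Cyc1. Pseudogene copies and the isoform genes Cox7a1 and Cox8b were left out. The rule found 93 of 54752 genes: 36 subunits of complex I, 8 assembly factors of complex I, 4 subunits of complex II, 9 of complex III, and 18 genes each counted with complexes IV and V. Those of complex IV include the supercomplex factor Cox7a2l. Those of complex V include 2 identifiers of Atp5o, and Atp5s, which was not classed with any part of the enzyme. Ndufa4 and its paralogue Ndufa4l2 were counted with complex IV, where the NDUFA4 protein is found. Of the 93 members, 90 passed the filter on low counts and were tested among 19736 genes. The 3 others were Cox7b2 with 3 counts over all libraries, and Cox8c and a second identifier of Atp5o, each with 0 counts.

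RNA was measured in iWAT of WT, Lepob/+, SOD1G93A and SOD1G93A-Lepob/+ mice, labelled as females on the C57BL/6 background and killed at 90 days of age, with 4 libraries per genotype. SOD1G93A mice, a model of amyotrophic lateral sclerosis, carry many copies of a human SOD1 transgene with the G93A change, and keep their own Sod1 gene. Lepob/+ mice carry 1 ob allele of the leptin gene and 1 working allele, so leptin is lowered, not absent. SOD1G93A-Lepob/+ mice came from Lepob/+ mothers and SOD1G93A fathers and carry both mutations, and all 4 genotypes share the strain background.

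Oxidative phosphorylation takes place in the inner membrane of mitochondria. Complex I accepts electrons from NADH and complex II from succinate, and ubiquinone passes them to complex III, cytochrome c and complex IV, which reduces oxygen. Complexes I, III and IV pump protons, and complex V, the ATP synthase, uses their return to make ATP. Apart from complex II, each complex joins subunits encoded in the nucleus with a few encoded in mitochondrial DNA. White fat holds few mitochondria per cell, whereas brown and beige fat and skeletal muscle hold many, and some subunits of complex IV have separate isoforms for muscle.

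The libraries held 36.8 M to 61.9 M counts (M for 1e6), and levels are given as CPM, counts per 1e6 counts of the library scaled by the trimmed mean of M values (TMM). Adipoq, the hormone gene of mature adipocytes, was read in every library at 1209 to 3262 CPM. Ckm, the creatine kinase of skeletal muscle, was at 713 CPM in WT replicate 3 and at 26625 CPM in Lepob/+ replicate 4, against 0 to 27.6 CPM in the other 14 libraries. The mean log2 CPM of 18 skeletal muscle genes was 6.90 and 12.41 in these 2 libraries and -1.66 to 3.45 in the others. Most results below are therefore also given without WT replicate 3 and Lepob/+ replicate 4, the 2 libraries richest in muscle RNA. A list of 12 lymphocyte genes had a mean log2 CPM of 6.48 to 7.80 in WT replicates 1 and 2, Lepob/+ replicate 3 and SOD1G93A replicates 1, 2 and 4, and of 0.64 to 2.27 in the other 10 libraries. The library labelled SOD1G93A-Lepob/+ replicate 3 had 0 Xist counts and 1756 counts of Y-linked genes, against its female label, whereas the 15 others had 11895 to 28034 Xist counts and none from the Y. In bulk tissue, fewer cells of a type and less RNA per cell cannot be told apart.

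The members together took 0.962% to 1.46% of the counts of a library, and the highest shares were those of WT replicate 3 and of Lepob/+ replicate 4, at 1.46% and 1.45%. Levels of different genes were compared per kilobase of the shortest principal transcript, averaged over 16 libraries. Complexes III, IV and V stood at medians of 199.7, 199.5 and 195.0 CPM per kilobase, complex II at 142.3, complex I at 96.8 and the assembly factors of complex I at 12.3. Without the 2 muscle-rich libraries, the medians of complexes III, IV and V were 181.2, 183.9 and 181.4. Those of complex II, complex I and the assembly factors were 132.4, 90.8 and 11.9. The 3 highest members were Atp5b, the catalytic beta subunit of the ATP synthase, at 638 CPM per kilobase, Cox8a, a small subunit of complex IV, at 572, and Cox6a1 at 477. The 3 lowest tested members were the assembly factors Ndufaf4 at 1.67 and Ndufaf6 at 3.62, and Cox6b2, the testis isoform of subunit 6b, at 3.63.

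Levels also differed by role within a complex. In complex I, the 7 core subunits that carry out electron transfer had a median of 74.4 CPM per kilobase, and the 29 accessory subunits one of 108.1. In complex III, the 5 accessory subunits had a median of 272.1, and the core proteins Uqcrc1 and Uqcrc2 stood at 143 and 106. In complex IV, the 11 subunits used by most tissues had a median of 242.8 and the 4 tested isoforms of restricted tissues one of 7.74. In complex V, the 5 genes of the F1 head had a median of 315.4, the 3 genes of the c ring 235.2 and the 4 genes of the peripheral stalk 154.9. There were 5 members with principal transcripts of lengths that differed by more than 2-fold, so that their level depends on the transcript chosen. For Ndufb2, the level was 77.5 on the shortest transcript and 8.06 on the longest, for Atp5g1 80.8 and 10.2, and for Uqcrq 325.1 and 86.6. With the longest transcripts the order changed, with medians of 166.3 in complex IV, 161.6 in complex V, 143.3 in complex III, 142.3 in complex II and 87.5 in complex I.

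**Figure D1:**
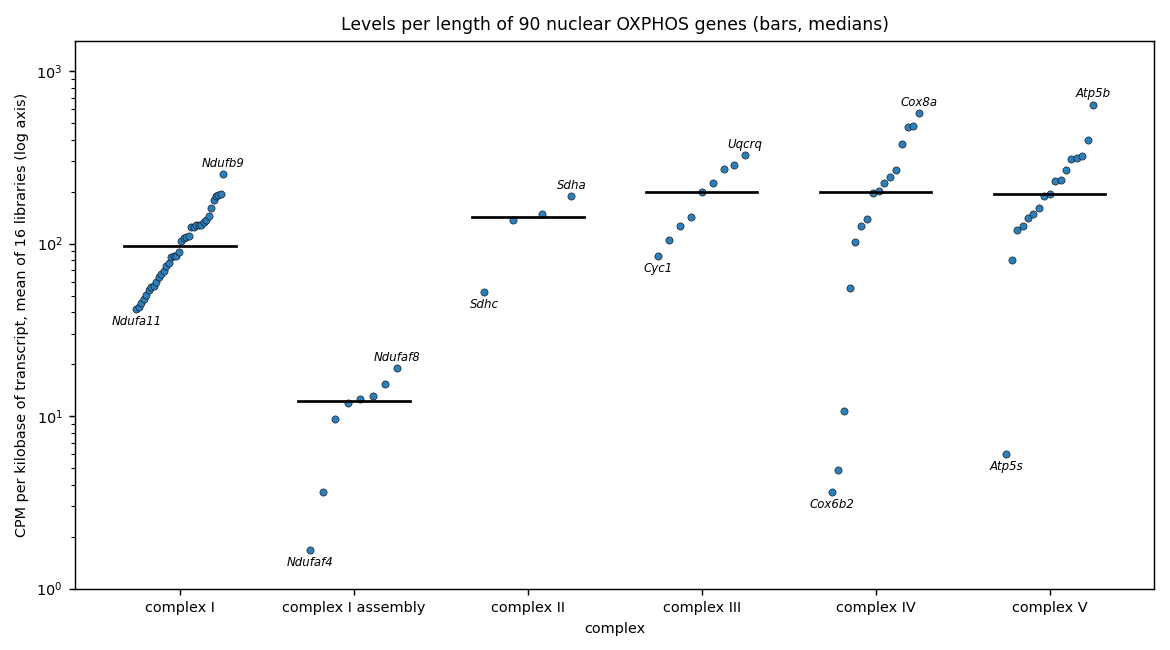
Level of each member in CPM per kilobase of its shortest principal transcript (log axis, mean of 16 libraries), grouped by complex, with 1 point per gene and a line at the median of the complex. Most subunits sit between 41.8 and 638 CPM per kilobase, whereas the 8 assembly factors of complex I lie between 1.67 and 18.9 and the restricted isoforms of complex IV near or below them, apart from Cox6a2. The place of Cox6a2 comes from Lepob/+ replicate 4, at 575 CPM. Its mean was 0.864 CPM over the 14 libraries without that library and WT replicate 3.

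Over the 90 tested members, the mean log2 CPM was 6.17, 5.94, 6.66 and 6.24 in the WT libraries and 6.15, 6.27, 6.25 and 7.17 in the Lepob/+ libraries. It was 6.20, 6.01, 6.41 and 6.01 in SOD1G93A and 6.30, 5.98, 6.12 and 6.27 in SOD1G93A-Lepob/+. Lepob/+ replicate 4 was the highest library and WT replicate 3 the next, and the other 14 libraries lay between 5.94 and 6.41 with the genotypes overlapping. The group means were 6.25 ± 0.30 (SD, n = 4), 6.46 ± 0.48, 6.16 ± 0.19 and 6.17 ± 0.15, in the order WT, Lepob/+, SOD1G93A and SOD1G93A-Lepob/+, with a pooled SD of 0.307. From the lowest to the highest, the order was SOD1G93A, SOD1G93A-Lepob/+, WT and Lepob/+, and no neighbours in it differed by more than the pooled SD. Of the 90 members, 75 were highest in Lepob/+ replicate 4 and 11 in WT replicate 3, which left 4 members with their highest value elsewhere.

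**Figure D2:**
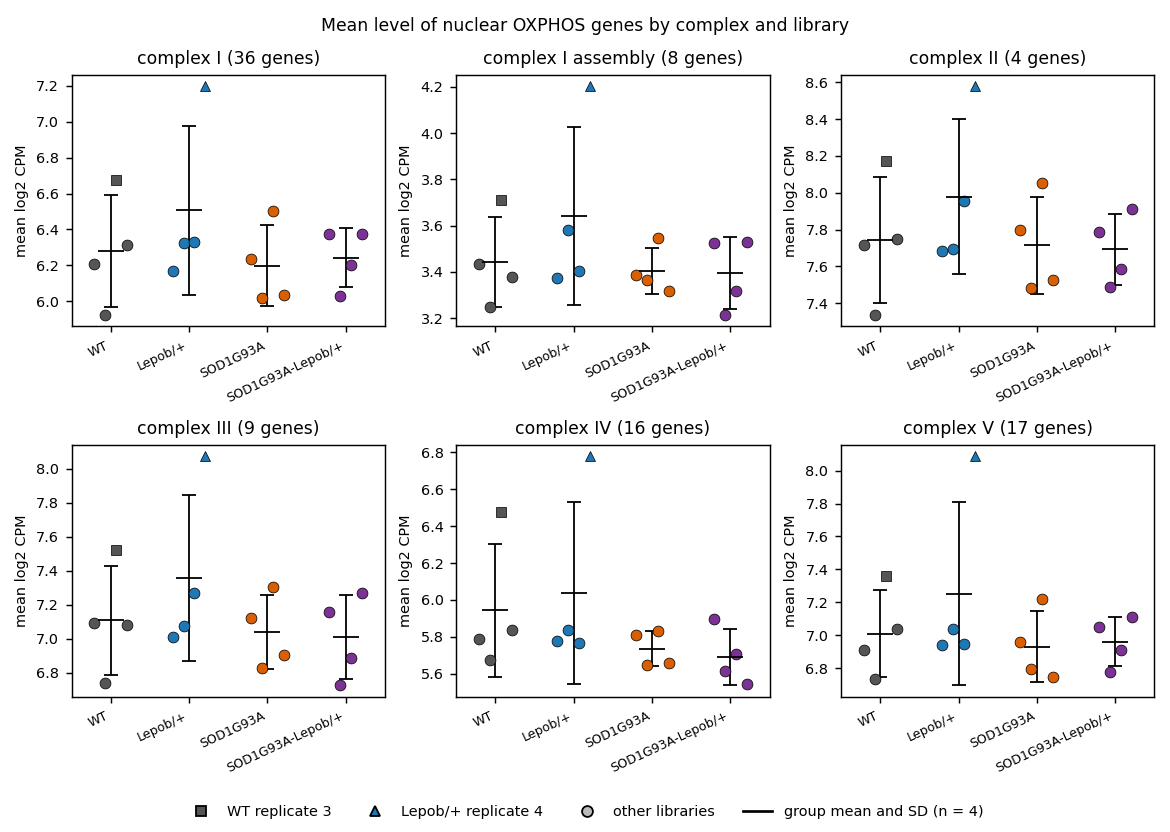
Mean log2 CPM of the members of each complex in each of the 16 libraries, by genotype, with 1 point per library and a bar at the group mean ± SD (n = 4). In every complex the highest point is Lepob/+ replicate 4 and the next is WT replicate 3, and the other libraries of the 4 genotypes overlap. The complex IV mean includes the muscle isoform Cox6a2. Over only its 11 subunits used by most tissues, the highest and next points were close, at 7.82 and 7.79, against 7.06 to 7.56 elsewhere. The lowest complex IV point, 5.54, is SOD1G93A-Lepob/+ replicate 4, which had 0 Cox6a2 counts. Over those 11 subunits it was at 7.49.

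Lepob/+ replicate 4 lay above all 14 other libraries (WT replicate 3 left aside) for 79 of the 90 members, within their range for 9 and below it for 2. Its median ratio to the mean of the 14 libraries was 1.94, and it was 2.11 in complex III, 2.05 in complex V, 2.00 in complex I, 1.82 in complex II, 1.55 for the assembly factors and 1.38 in complex IV. These ratios depend on the TMM scaling, whose factor was 0.664 for this library and 0.936 to 1.11 for the others. Of unscaled counts, the members took 1.45% in this library and 0.962% to 1.32% (mean 1.14%) in the 14 libraries. The 2 members below the range were Cox6a1 and Cox8a, which have a muscle isoform beside them. WT replicate 3 lay above the 14 libraries for 69 members and within their range for 21, with a median ratio of 1.35. In WT replicate 3 the list of 14 mature adipocyte genes was also the highest of all libraries, at a mean log2 CPM of 10.78 against 9.62 to 10.72 in the others. In Lepob/+ replicate 4 it was 9.78. The part of muscle RNA or of adipocyte content in the members' level in WT replicate 3 was not tested.

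The members varied little among the other 14 libraries. The SD of log2 CPM had a median of 0.197 over the members and of 0.386 over all genes tested, and 87 of 90 members lay below the latter. All genes tested include those just above the filter on low counts, and no genes matched to the members in level were compared. With all 16 libraries the medians were 0.332 and 0.423. The highest and lowest of the 14 libraries differed by less than 2-fold for 82 of the 89 members read in all of them, with a median of 1.59-fold. The widest of these ranges was that of Ndufaf4, at 3.39-fold, followed by Cox6b2 at 2.79-fold and Ndufa4l2 at 2.38-fold.

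Subunits moved together from library to library. The median Pearson correlation over all 4005 pairs of members was 0.817 across 16 libraries and 0.633 across the 14, as a description in which all pairs share the same libraries and scaling. Pairs within complex III had the highest median, 0.796 across the 14 libraries, followed by complex II at 0.756, complex I at 0.689 and complex V at 0.565. Pairs within complex IV had a median of 0.422 and the assembly factors of complex I one of 0.252. Against the mean of the other members, 48 of 90 had a correlation over 0.8 across the 14 libraries and 86 had one over 0. The 4 below 0 were all counted with complex IV: Cox6a2 (-0.57), Cox7a2l (-0.23), Cox6b2 (-0.15) and Cox4i2 (-0.06). The 11 complex IV subunits used by most tissues had correlations from 0.64 (Cox6c) to 0.97 (Cox7a2), so the low median within complex IV does not describe them.

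**Figure D3:**
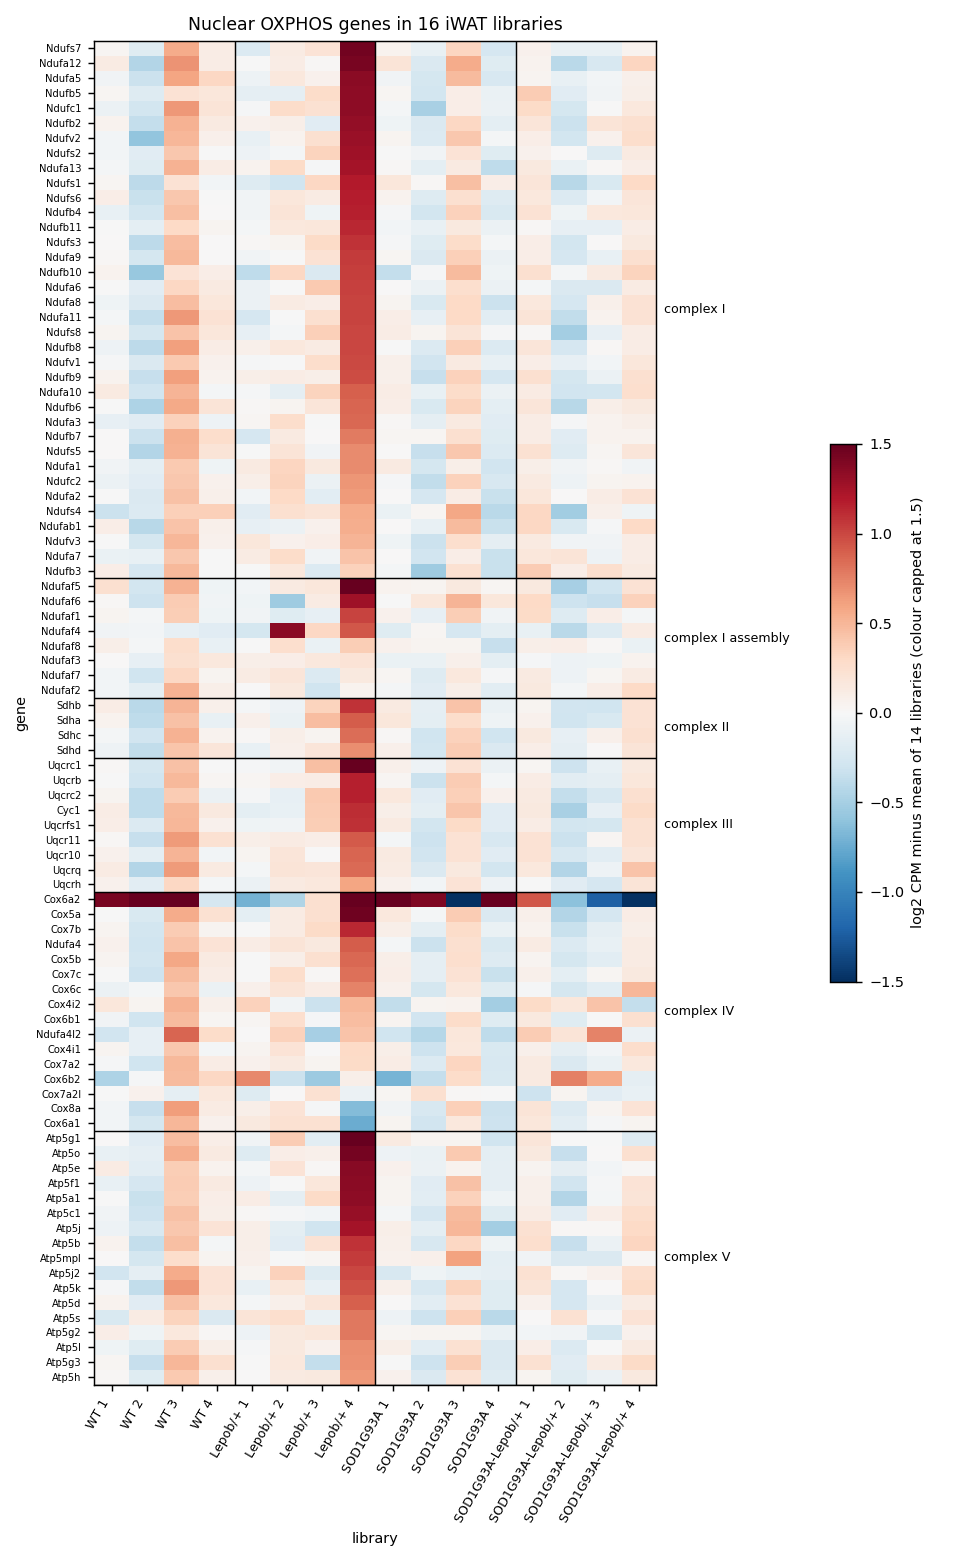
Log2 CPM of each tested member relative to its mean over the 14 libraries without WT replicate 3 and Lepob/+ replicate 4 (colour scale, capped at 1.5 in both directions), with the members in rows grouped by complex and the libraries in columns grouped by genotype. The column of Lepob/+ replicate 4 lies above all 14 libraries in 79 of 90 rows and that of WT replicate 3 in 69, and no genotype forms a block of its own.

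In complex I, Ndufs1, the largest core subunit with iron-sulfur clusters, was read at 129, 96.3, 147 and 123 CPM in WT and 110.1, 103, 156 and 288 in Lepob/+, and at 142, 128, 172 and 135 in SOD1G93A and 143, 94.9, 108 and 155 with both mutations. Lepob/+ replicate 4 was about as far above the rest as for the complex as a whole, and the 4 groups overlapped. Ndufv1, the flavoprotein that binds NADH, ran at 104, 90.9, 139 and 110.5 CPM in WT, 104, 106, 127 and 210.0 in Lepob/+, 112, 86.6, 116 and 98.2 in SOD1G93A and 113, 97.0, 103 and 119 with both mutations. Outside Lepob/+ replicate 4 and WT replicate 3, its 14 values spanned 86.6 to 127 CPM. Ndufab1, the acyl carrier protein, which also serves in mitochondrial fatty acid synthesis, lay between 66.9 and 131 CPM over all libraries. Ndufb11, an accessory subunit of the membrane arm, varied least among the complex I subunits, at 93.6 to 117 CPM in the 14 libraries, 128 CPM in WT replicate 3 and 228 CPM in Lepob/+ replicate 4.

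A pair of accessory subunits is also named in the comparisons given further on. Ndufa1, a small subunit of the membrane arm, was at 68.1, 63.9, 92.8 and 67.3 CPM in WT, 77.4, 88.4, 78.0 and 115 in Lepob/+, 77.9, 58.9, 75.1 and 57.9 in SOD1G93A and 75.3, 68.1, 71.5 and 68.0 with both mutations. All 4 Lepob/+ libraries were above all 4 SOD1G93A-Lepob/+ libraries, and these groups did not overlap in 2.35% of all genes tested. Ndufb3 was at 91.4, 64.4, 109 and 73.6 CPM in SOD1G93A and 121, 99.5, 111 and 102 CPM in SOD1G93A-Lepob/+, where SOD1G93A replicate 3 lay inside the range of the other genotype. Limma voom called Ndufb3 in this comparison, as it did 31.5% of all genes.

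The assembly factors of complex I, which help to build the enzyme without staying in it, were read at 2.40 to 45.8 CPM. Ndufaf4 was at 5.32, 5.39, 5.06 and 4.92 CPM in WT, 4.61, 14.1, 6.85 and 10.6 in Lepob/+, 4.88, 5.65, 4.64 and 5.01 in SOD1G93A and 5.14, 4.17, 4.85 and 6.01 with both mutations. Of the Lepob/+ libraries, 3 lay above every library of the other genotypes, the highest was replicate 2 and not the muscle-rich replicate 4, and replicate 1 lay within the other genotypes' range. Ndufaf5, which modifies an arginine of subunit NDUFS7, was at 8.37, 9.41, 9.67 and 45.8 CPM in Lepob/+ and between 6.05 and 12.3 CPM in all libraries of the other genotypes. The high value was that of replicate 4 alone. Ndufaf3 was steady at 15.7 to 19.4 CPM in the 14 libraries.

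Complex II, also an enzyme of the tricarboxylic acid (TCA) cycle, is encoded wholly in the nucleus. Sdha, its flavoprotein, was at 523, 388, 684 and 468 CPM in WT, 532, 472, 696 and 949 in Lepob/+, 567, 456, 604 and 484 in SOD1G93A and 529, 410.2, 431 and 585 with both mutations. The iron-sulfur subunit Sdhb spanned 106 to 189 CPM in the 14 libraries, and the membrane anchors Sdhc and Sdhd 124 to 196 and 132 to 221 CPM. For each of the 4 genes the highest library was Lepob/+ replicate 4, at 949, 299, 274 and 275 CPM.

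In complex III, Uqcrc1, a core protein of the matrix side, was at 208, 171, 279 and 204 CPM in WT, 203, 197, 280.3 and 612 in Lepob/+, 217, 194, 239 and 194 in SOD1G93A and 209, 166, 189.7 and 227 with both mutations. It had the largest ratio of the complex in Lepob/+ replicate 4, at 2.95 times the mean of the 14 libraries. Cyc1, the cytochrome c1 that hands electrons to cytochrome c, spanned 82.7 to 155 CPM in the 14 libraries, and the Rieske protein Uqcrfs1 spanned 128 to 201 CPM. Both were highest in Lepob/+ replicate 4, and Uqcrfs1 reached 332 CPM there.

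Complex IV showed the widest differences between its own members, which lay between subunits used by most tissues and isoforms of few. Cox4i1, the widely used form of subunit 4, was at 347, 312, 449 and 331 CPM in WT, 349, 392, 339 and 416 in Lepob/+, 361, 273, 378 and 289 in SOD1G93A and 356, 308, 329.6 and 407 with both mutations. Unlike most members, it was not highest in Lepob/+ replicate 4. Cox5a was at 102, 123, 133 and 311 CPM in Lepob/+ and 83.5 to 166 CPM in the other genotypes, and Cox5b at 110.0, 118, 131 and 201 CPM against 91.8 to 165. Cox6b1 and Cox7a2 reached 308 and 175 CPM in WT replicate 3, and 305 and 152 CPM in Lepob/+ replicate 4. Ndufa4 was at 189 CPM in Lepob/+ replicate 4 and at 80.9 to 136 CPM elsewhere.

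Cox7a2l, listed here as a factor of supercomplexes of complexes III and IV, went its own way. Whether its protein acts so in these mice was not examined. Its values were 110.5, 116, 101 and 124 CPM in WT, 97.0, 112, 129.9 and 104 in Lepob/+, 113, 131, 112 and 110.2 in SOD1G93A and 89.5, 114, 98.6 and 103 with both mutations. Neither WT replicate 3 nor Lepob/+ replicate 4 was high, and the highest library was SOD1G93A replicate 2.

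In complex V, Atp5a1 and Atp5b, the alpha and beta subunits of the F1 head, stood at 323 and 638 CPM per kilobase. In CPM, Atp5b was at 1149, 865, 1518 and 1091 CPM in WT, 1175, 985, 1289 and 2347 in Lepob/+, 1166, 938, 1370.0 and 1058 in SOD1G93A and 1321, 870.4, 1042 and 1386 with both mutations. Atp5a1 spanned 523 to 905 CPM in the 14 libraries and was at 919 and 1803 CPM in WT replicate 3 and Lepob/+ replicate 4. Atp5j2, a subunit of the membrane part, was at 104, 117, 113 and 111 CPM in SOD1G93A and 143, 123, 128 and 145 CPM in SOD1G93A-Lepob/+, so that every library with both mutations lay above every SOD1G93A library. These groups did not overlap in 7.18% of all genes tested.

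Isoform pairs separated Lepob/+ replicate 4 from the other libraries most sharply. Cox6a2 encodes the heart and skeletal muscle form of subunit 6a, and Cox6a1 the form of most other tissues. Cox6a2 was at 1.40, 1.66, 13.7 and 0.423 CPM in WT, 0.302, 0.367, 0.607 and 575 in Lepob/+, 1.73, 1.38, 0.121 and 2.59 in SOD1G93A and 0.996, 0.325, 0.204 and 0 with both mutations. SOD1G93A-Lepob/+ replicate 4 had 0 counts of Cox6a2, which allows up to 0.0843 CPM (3 counts, counting error only). Cox6a1 was at 264, 225, 384 and 283 CPM in WT, 299, 316, 318 and 161 in Lepob/+, 278, 221, 303 and 218 in SOD1G93A and 304, 242, 268 and 279 with both mutations. In the muscle-rich Lepob/+ replicate 4, Cox6a1 was thus the lowest and Cox6a2 the highest of all libraries.

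Per kilobase, Cox6a2 made up 2.91% of the summed level of both genes in WT replicate 3, 75.0% in Lepob/+ replicate 4 and at most 0.984% in the 14 other libraries. The 2 isoform genes outside the member list ran the same way in that library. Cox8b, the form of muscle and brown fat, made up 58.2% of Cox8a and Cox8b there and 7.21% to 29.0% elsewhere, and Cox7a1 made up 59.7% of Cox7a1 and Cox7a2 there and 3.41% to 23.1% elsewhere. The highest of the others for both was Lepob/+ replicate 3, at 29.0% and 23.1%. In this library Ucp1, the uncoupling protein of thermogenic fat, was at 312.6 CPM, against 0.175 to 75.6 CPM elsewhere.

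The isoforms of other tissues stayed low. Cox4i2, the lung form of subunit 4, was 0.640% to 1.36% of Cox4i1 and Cox4i2 over all libraries. Cox6b2 was 0.557% to 1.78% of the 6b pair, and Ndufa4l2, a gene induced by low oxygen in many cells, was 2.66% to 7.25% of Ndufa4 and Ndufa4l2. Ndufa4l2 was at 7.37, 8.26, 16.6 and 10.9 CPM in WT, 9.03, 11.5, 6.36 and 12.1 in Lepob/+, 7.33, 6.69, 10.1 and 6.90 in SOD1G93A and 11.7, 10.3, 15.2 and 8.51 with both mutations. The SOD1G93A libraries had the lowest group mean and overlapped those of every other genotype.

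The c ring of the ATP synthase is built from 1 mature protein encoded by 3 genes. Atp5g1 was at 34.5, 30.4, 47.0 and 36.7 CPM in WT, 32.9, 44.6, 30.7 and 241 in Lepob/+, 37.5, 35.1, 35.3 and 27.8 in SOD1G93A and 38.9, 34.0, 34.0 and 30.1 with both mutations. In per-kilobase levels it supplied 6.83% to 10.2% of the 3 genes in 15 libraries and 29.1% in Lepob/+ replicate 4. On the longest principal transcripts these shares were 1.07% to 1.69% and 5.84%, so the size of the share depends on the transcript chosen, with Lepob/+ replicate 4 highest on both. Atp5g3 supplied 43.2% in Lepob/+ replicate 4 and 48.9% to 62.5% elsewhere. Atp5g2 was steady, at 81.9 to 111 CPM in the 14 libraries.

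**Figure D4:**
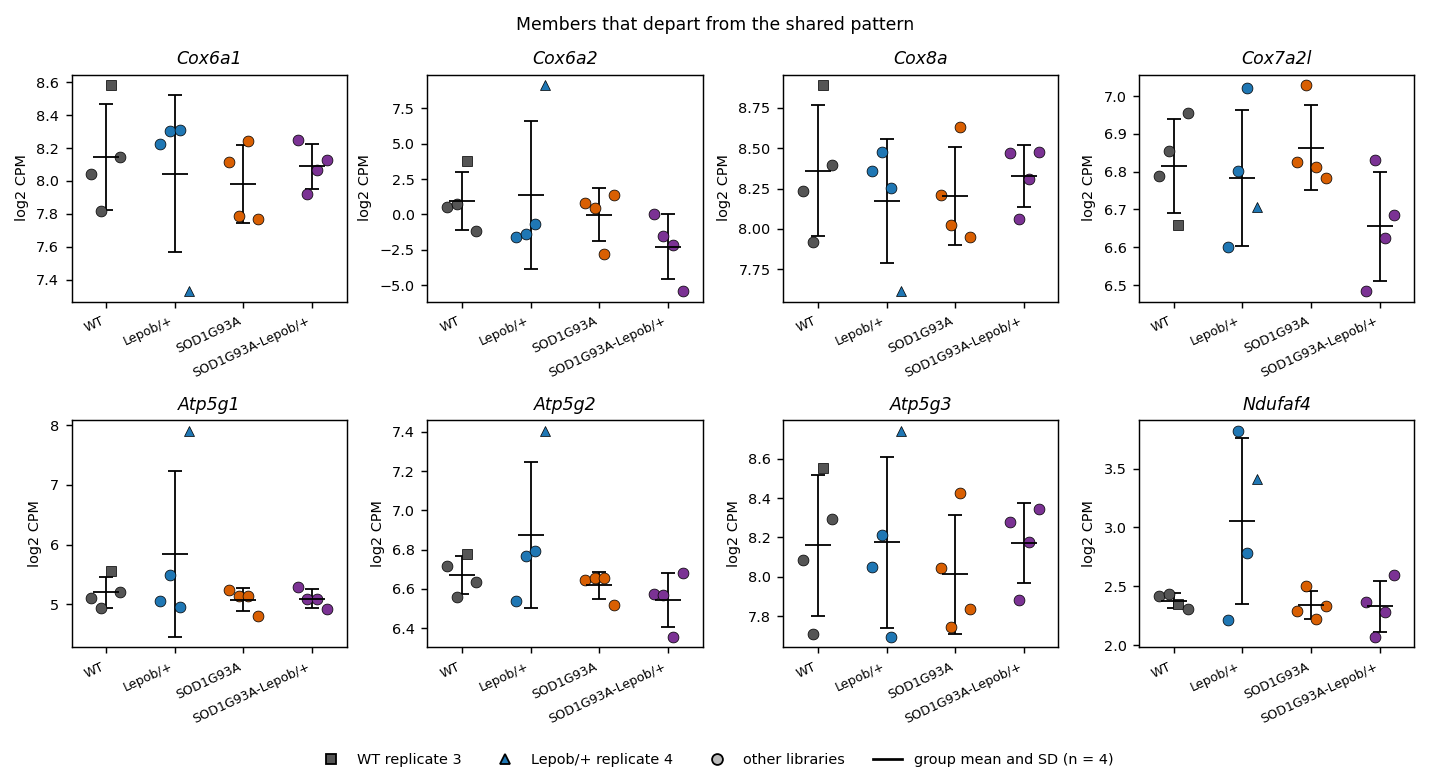
Log2 CPM of 8 members (panels, each with its own axis) in every library, by genotype, with the group mean ± SD (n = 4), a square for WT replicate 3 and a triangle for Lepob/+ replicate 4. Lepob/+ replicate 4 is the lowest library for Cox6a1 and Cox8a and the highest for Cox6a2, Atp5g1, Atp5g2 and Atp5g3, whereas the highest is SOD1G93A replicate 2 for Cox7a2l and Lepob/+ replicate 2 for Ndufaf4.

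The promoters of the 3 c-ring genes, of Cox6a1 and of Ndufaf4 are shown because these genes carried the contrasts above: members of 1 ring that differed in Lepob/+ replicate 4, the subunit lowest there, and the assembly factor highest in another Lepob/+ library. The windows are from RefSeq (GRCm38.p6), with 250 bases before and 50 from the annotated start, written 5′ to 3′ on the gene's strand. The window of Atp5g1 is chr11:96075582-96075881 (minus strand), that of Atp5g2 chr15:102670998-102671297 (minus), that of Atp5g3 chr2:73911277-73911576 (minus), that of Cox6a1 chr5:115348909-115349208 (minus) and that of Ndufaf4 chr4:24897833-24898132 (plus). Capitals mark matches, on either strand, to the cores bound by NRF1 (GCATGCGC), ETS factors such as GABPA (CCGGAAG), ERR receptors (AAGGTCA), YY1 (AAGATGGC) and SP1 (GGGCGGG).
Atp5g1: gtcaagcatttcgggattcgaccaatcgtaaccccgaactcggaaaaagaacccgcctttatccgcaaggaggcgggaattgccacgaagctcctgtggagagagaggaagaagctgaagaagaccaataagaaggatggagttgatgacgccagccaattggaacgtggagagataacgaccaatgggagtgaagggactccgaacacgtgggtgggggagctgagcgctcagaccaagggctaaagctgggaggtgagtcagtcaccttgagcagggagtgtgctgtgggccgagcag
Atp5g2: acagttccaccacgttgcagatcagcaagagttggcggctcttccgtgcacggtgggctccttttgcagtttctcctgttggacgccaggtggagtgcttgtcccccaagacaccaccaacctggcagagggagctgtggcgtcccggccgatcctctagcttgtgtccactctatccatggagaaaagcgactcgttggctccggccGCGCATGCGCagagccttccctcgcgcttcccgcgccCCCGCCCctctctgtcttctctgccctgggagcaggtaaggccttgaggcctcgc
Atp5g3: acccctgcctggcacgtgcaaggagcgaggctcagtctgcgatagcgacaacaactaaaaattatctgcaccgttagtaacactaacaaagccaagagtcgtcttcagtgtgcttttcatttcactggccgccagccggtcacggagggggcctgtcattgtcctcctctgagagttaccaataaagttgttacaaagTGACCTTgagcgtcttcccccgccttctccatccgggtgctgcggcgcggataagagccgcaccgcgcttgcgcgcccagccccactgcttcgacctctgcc
Cox6a1: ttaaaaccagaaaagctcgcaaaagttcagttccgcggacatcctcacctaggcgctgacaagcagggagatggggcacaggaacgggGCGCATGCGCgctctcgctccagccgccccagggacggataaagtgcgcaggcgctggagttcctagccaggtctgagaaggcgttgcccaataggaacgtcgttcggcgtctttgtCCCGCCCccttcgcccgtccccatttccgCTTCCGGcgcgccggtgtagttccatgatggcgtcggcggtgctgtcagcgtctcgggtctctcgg
Ndufaf4: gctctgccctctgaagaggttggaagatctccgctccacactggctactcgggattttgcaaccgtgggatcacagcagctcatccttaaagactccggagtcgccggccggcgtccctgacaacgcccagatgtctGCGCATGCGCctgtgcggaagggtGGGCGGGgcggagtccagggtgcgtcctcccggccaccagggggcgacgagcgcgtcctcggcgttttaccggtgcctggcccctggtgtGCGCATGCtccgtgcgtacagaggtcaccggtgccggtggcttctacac

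Atp5g1 held none of the 5 motifs in its window, Atp5g2 held the NRF1 core and an SP1 box, and Atp5g3 an ERR core. Cox6a1 held NRF1, ETS and SP1 matches and Ndufaf4 NRF1 and SP1 matches. The NRF1 core is nearly its own reverse complement, so that overlapping matches on both strands form 1 run of capitals. Windows were found for 72 of the 92 member symbols, 77 windows in all. The NRF1 core was present in 15.6% of them and in 2.7% of the 32851 windows of all genes, the ETS core in 23.4% and 8.9%, the YY1 core in 10 of the 77 windows and in 2.7% of all and the ERR core in 10.4% and 4.7%. At least 1 of these 4 was present in 48.1% of member windows and 17.6% of all windows. The SP1 box (35.1% and 25.6%), CCAAT (42.9% and 37.4%) and TATAAA (9.1% and 13.6%) differed less between members and all genes. A match is a description of these letters and not of binding.

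The comparison of Lepob/+ with WT asks what the loss of 1 leptin allele changed. Of 90 members, 82 had a higher and 8 a lower mean in Lepob/+, with a median log2 fold change of 0.26 against 0.03 over all genes tested. No member passed an adjusted p of 0.05 in the edgeR quasi-likelihood test, as for all genes (0%), and DESeq2 and limma voom also called 0 members. Voom called 0% of all genes, and DESeq2 0.017% with the 2 genotypes fitted alone and 0.00318% with all libraries. At an unadjusted p under 0.05, 3 members passed, all higher, against 4.37% of all genes. In no member did the groups stay apart without overlap, against 0.907% of all genes.

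The 3 were Ndufaf4, at 0.80 (SE 0.26, unadjusted p = 0.00829, adjusted p = 1), Cox6a2 at 5.07 (SE 2.14, unadjusted p = 0.0325, adjusted p = 1) and Atp5g1 at 1.23 (SE 0.52, unadjusted p = 0.0332, adjusted p = 1) on the log2 scale. By complex, the median was 0.30 in complex I (35 of 36 higher), 0.30 in complex V (17 of 17), 0.28 in complex III (9 of 9), 0.25 in complex II (4 of 4), 0.12 for the assembly factors (7 of 8) and 0.09 in complex IV (10 of 16). Among the others with the smallest p of their complex were Uqcrc1 at 0.58 (SE 0.30), Uqcrc2 at 0.43 (SE 0.26), Sdha at 0.36 (SE 0.23), Atp5a1 at 0.47 (SE 0.28) and Ndufaf5 at 0.96 (SE 0.46). None of these passed. The muscle list was higher in Lepob/+ for 18 of 18 genes, by a median of 5.20, and without Lepob/+ replicate 4 it was lower for 18 of 18, by a median of -5.18. A list of 12 genes of thermogenic adipocytes was higher for 9 of 12, by a median of 1.88, with 5 at an unadjusted p under 0.05 (4.37% of all genes). Without Lepob/+ replicate 4 it was higher for 10 of 12 (0.91, with 4 against 1.7% of all genes). The list includes Cox7a1 and Cox8b, whose isoform shares were highest in the muscle-rich Lepob/+ replicate 4. Its mean log2 CPM was 2.30 to 3.16 in WT, 5.46 and 3.19 in Lepob/+ replicates 3 and 4 and 2.07 and 2.15 in Lepob/+ replicates 1 and 2. The part of thermogenic adipocytes in the members' values was not tested.

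Without Lepob/+ replicate 4 the members' median turned to -0.04, with 25 higher and 65 lower, and without WT replicate 3 it was 0.40, with 89 higher. With both left out it was 0.11, with 80 higher and 10 lower. Without Lepob/+ replicate 4, Cox6a2 went to -3.36, Atp5g1 to -0.06, Ndufaf5 to -0.06 and Sdhb to -0.04, whereas Ndufaf4 was still higher at 0.70 (unadjusted p = 0.0263), and at 0.50 (unadjusted p = 0.0466) without Lepob/+ replicate 2. On library totals without TMM the members' median was 0.04, with 53 higher and 37 lower, and that of all genes was -0.13. The number of members at an unadjusted p under 0.05 was 12, 8, 5 and 2 without Lepob/+ replicates 1, 2, 3 and 4, where 6.43%, 7.12%, 11.4% and 1.70% of all genes passed. It was 9 without WT replicate 3 (4.09% of all genes) and 1 without WT replicate 1, 2 or 4 (2.67%, 3.53% and 3.09%).

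The comparison of SOD1G93A with WT asks what the transgene changed. Here 9 members had a higher and 81 a lower mean in SOD1G93A, with a median of -0.10 against 0.02 over all genes. No member passed the adjusted p in edgeR (0% of all genes), in DESeq2 or in voom (0%). DESeq2 called 0.0471% of all genes with the 2 genotypes fitted alone and 0.00955% with all libraries. In edgeR 0 members passed an unadjusted p under 0.05, against 2.56% of all genes. In no member did the groups stay apart, against 2.05% of all genes. The members with the smallest p were Ndufa4l2 at -0.47 (SE 0.28, unadjusted p = 0.11, adjusted p = 0.998) and Cox4i2 at -0.39 (SE 0.23, unadjusted p = 0.113, adjusted p = 0.998). Ndufb3 stood at -0.24 (SE 0.18), Ndufaf3 at -0.15 (SE 0.10), Uqcr11 at -0.25 (SE 0.23), Atp5j2 at -0.26 (SE 0.23) and Sdhc at -0.13 (SE 0.22). The medians by complex ran from -0.14 in complex IV to -0.03 in complex II. Without WT replicate 3 the median turned to 0.05, with 65 higher and 25 lower, and with Lepob/+ replicate 4 also left out it was 0.04. Without WT replicate 2 it was -0.20, and without SOD1G93A replicate 3 it was -0.22 with 2 members at an unadjusted p under 0.05 (7.67% of all genes).

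The comparison of SOD1G93A-Lepob/+ with SOD1G93A asks what the loss of 1 leptin allele changed in the mice with the transgene. Members were split between both directions, with 51 higher and 39 lower in SOD1G93A-Lepob/+ and a median of 0.02 against 0.00 over all genes. No member passed the adjusted p in edgeR (0% of all genes) or DESeq2. DESeq2 called 6.02% of all genes with the 2 genotypes fitted alone and 1.8% with all libraries. In edgeR 0 members passed an unadjusted p under 0.05, against 16.5% of all genes. The groups did not overlap in 1 member, Atp5j2, which was higher with both mutations at 0.28 (SE 0.23, unadjusted p = 0.242, adjusted p = 0.540), against 7.18% of all genes.

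Limma voom with quality weights, which gives libraries unequal weight, called 4 of 90 members in this comparison, all higher with both mutations, against 31.5% of all genes. Under voom 73 members were higher and 17 lower, with a median of 0.13, and 10 passed an unadjusted p under 0.05, against 44.2% of all genes. The 4 called members were Ndufb3 at 0.49 (voom adjusted p = 0.0132), Ndufa4l2 at 0.64 (adjusted p = 0.0196), Ndufa7 at 0.31 (adjusted p = 0.0323) and Cox4i2 at 0.49 (adjusted p = 0.0475). In edgeR the same members were at 0.36 (SE 0.19, unadjusted p = 0.0745, adjusted p = 0.342), 0.56 (SE 0.28, unadjusted p = 0.0642, adjusted p = 0.325), 0.22 (SE 0.15, unadjusted p = 0.168, adjusted p = 0.467) and 0.34 (SE 0.23, unadjusted p = 0.169, adjusted p = 0.468). The SOD1G93A libraries with a high lymphocyte list were replicates 1, 2 and 4, and no SOD1G93A-Lepob/+ library was among those 6. The mature adipocyte list had a mean log2 CPM of 10.24 to 10.59 in SOD1G93A-Lepob/+ and of 9.62, 9.84, 9.93 and 10.72 in SOD1G93A. The part of these cell types in the members' values was not tested. The small median changed sign without SOD1G93A replicate 2 (-0.02) or 4 (-0.03), without SOD1G93A-Lepob/+ replicate 1 (-0.01) or 4 (-0.02), and on library totals (-0.03, with 37 higher and 53 lower). Without SOD1G93A replicate 3 it was 0.13, with 73 higher, 17 lower and 3 at an unadjusted p under 0.05 (28.0% of all genes), and without SOD1G93A-Lepob/+ replicate 2 it was 0.09.

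The comparison of SOD1G93A-Lepob/+ with WT sets mice with both mutations against mice with none. Of the members, 18 had a higher and 72 a lower mean with both mutations, with a median of -0.07 against 0.01 over all genes. None passed the adjusted p in edgeR (0% of all genes), DESeq2 or voom (0.0101%). DESeq2 called 1.21% of all genes with the 2 genotypes fitted alone and 0.14% with all libraries. In edgeR 0 members passed an unadjusted p under 0.05 (4.74% of all genes), and none had groups that stayed apart (3.64% of all genes). Cox7a2l was at -0.16 (SE 0.12, unadjusted p = 0.196, adjusted p = 0.951) and Cox6a2 at -3.45 (unadjusted p = 0.122). Ndufs8, a core iron-sulfur subunit, was at -0.22 (SE 0.22), Sdhb at -0.17 (SE 0.26), Uqcrfs1 at -0.17 (SE 0.25) and Atp5d at -0.17 (SE 0.20). Without WT replicate 3 the median turned to 0.09, with 70 higher and 20 lower, and voom gave 0.09, with 74 higher and 16 lower. Without SOD1G93A-Lepob/+ replicate 2 the members were split, with 44 higher and 46 lower, and library totals without TMM gave 6 higher and 84 lower (median -0.15).

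The comparison of SOD1G93A-Lepob/+ with Lepob/+ asks what the transgene changed where 1 leptin allele was lost. With 16 libraries in edgeR, 84 members were lower and 6 higher with both mutations, and their median of -0.33, against -0.06 over all genes, lay farther from 0 than in the 4 other comparisons of genotypes. None passed the adjusted p in edgeR (0% of all genes), DESeq2 or voom (0.0101%). DESeq2 called 0.106% of all genes with the 2 genotypes fitted alone and 0.217% with all libraries. At an unadjusted p under 0.05, 12 of 90 passed, all lower, against 8.24% of all genes in either direction. With only the 2 genotypes in the fit, 3 members passed in edgeR (5.49% of all genes) and 1 in DESeq2 (3.79%). Voom with quality weights gave 0 members (6.57% of all genes) and a median of -0.06, with 64 lower and 26 higher. The 12 members that passed with 16 libraries in edgeR were Ndufa1, Ndufa6, Ndufb11, Ndufaf4, Ndufaf5, Uqcrc1, Cox5a, Cox6a2, Cox7b, Atp5e, Atp5g1 and Atp5g2.

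The smallest p was that of Cox6a2, at -8.52 (SE 2.54, unadjusted p = 0.00467, adjusted p = 0.597), followed by Ndufaf4, at -0.84 (SE 0.26, unadjusted p = 0.00627, adjusted p = 0.597). Atp5g1 was at -1.35 (SE 0.52), Ndufaf5 at -1.17 (SE 0.46), Uqcrc1 at -0.71 (SE 0.30), Cox7b at -0.53 (SE 0.23), Ndufa6 at -0.48 (SE 0.21), Sdhb at -0.48 (SE 0.26) and Atp5g2 at -0.36 (SE 0.15). Complexes III, V and I had medians of -0.42, -0.36 and -0.35. The groups stayed apart in 2 members, Ndufa1 and Ndufaf3, against 2.35% of all genes, with Ndufa1 at -0.34 (SE 0.16) and Ndufaf3 at -0.16 (SE 0.10).

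This shift moved with 1 library. The members' median without Lepob/+ replicate 4 was -0.06, with 62 lower and 28 higher, and Ndufaf4 alone passed an unadjusted p under 0.05, at -0.75 (SE 0.28, unadjusted p = 0.0189, adjusted p = 0.789), against 6.15% of all genes. Without Lepob/+ replicate 1 the median was -0.42 and 31 members passed (12.3% of all genes), and without Lepob/+ replicate 2 there were 21 (11.7%). Without SOD1G93A-Lepob/+ replicates 1, 2 and 3 there were 6, 3 and 3, where 5.26%, 6.4% and 6.14% of all genes passed. The muscle list was lower with both mutations for 18 of 18 genes, by a median of -9.25, and without Lepob/+ replicate 4 it was higher for 17 of 18, by a median of 1.73. The thermogenic list was lower for 11 of 12, by a median of -1.93, with 6 at an unadjusted p under 0.05 (8.24% of all genes). Without Lepob/+ replicate 4 it was also lower for 11 of 12 (-1.01, with 2 against 6.15% of all genes). Its mean log2 CPM was 1.47 to 3.11 with both mutations. On library totals without TMM the members' median was -0.17, with 77 lower and 13 higher, and that of all genes was 0.02.

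**Figure D5:**
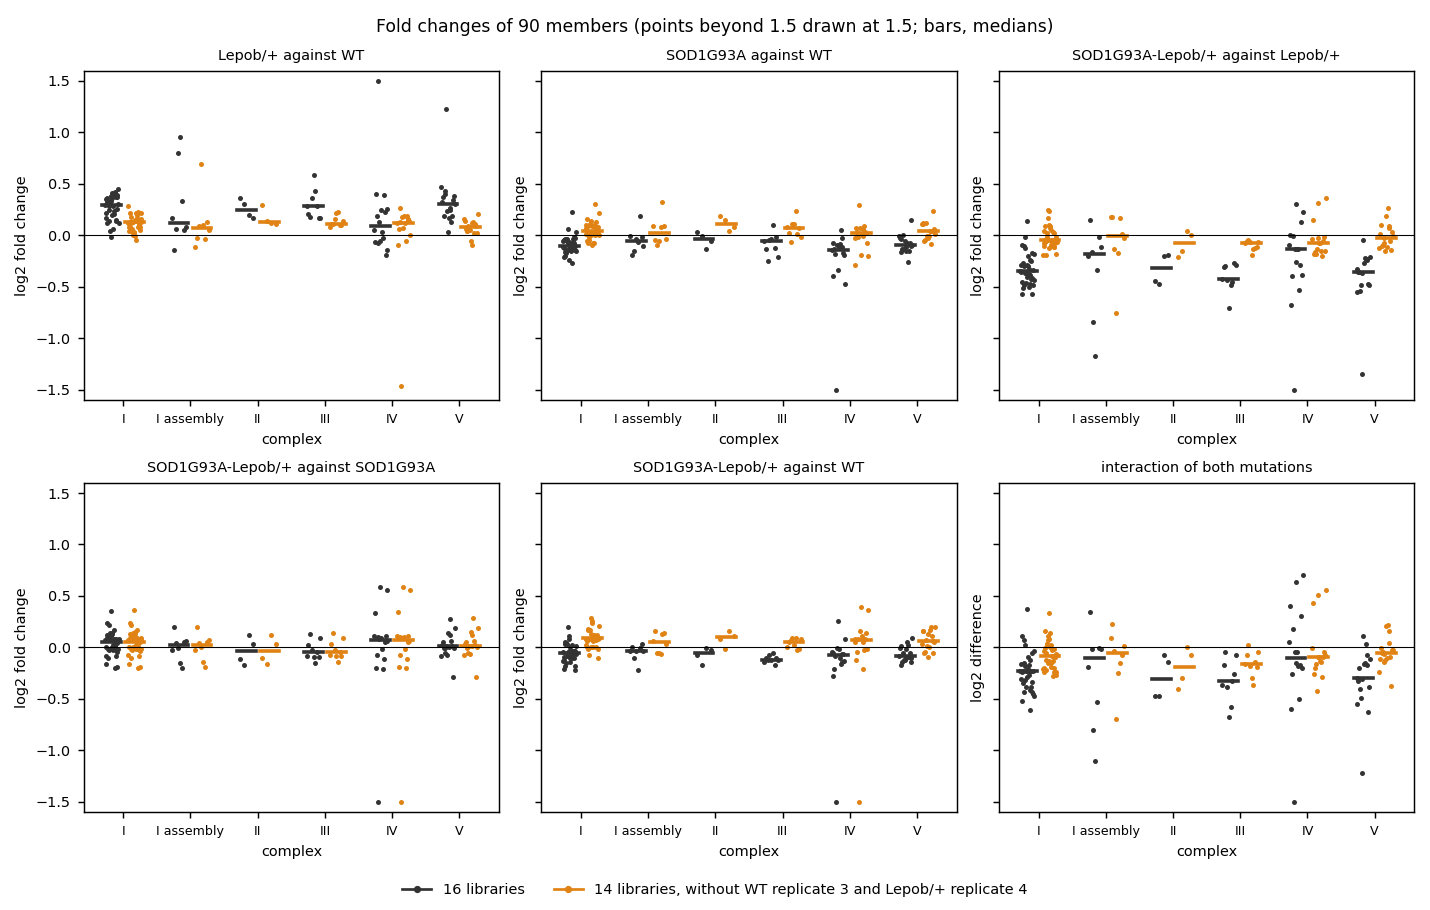
Log2 fold change of each tested member in the 5 comparisons of genotypes, and the log2 difference of the interaction, grouped by complex, with 1 point per gene (drawn at 1.5 where larger in size) and a bar at the median, in black with 16 libraries and in orange without WT replicate 3 and Lepob/+ replicate 4. With 16 libraries, points lie mostly above 0 for Lepob/+ against WT (82 of 90) and mostly below 0 for SOD1G93A-Lepob/+ against Lepob/+ (84 of 90), and the members' medians in these comparisons, 0.26 and -0.33, were 0.11 and -0.06 without the muscle-rich libraries. No member passed an adjusted p of 0.05.

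The interaction asks whether the effect of both mutations differed from the sum of the single ones. The estimate was below 0 for 77 and above 0 for 13 members, with a median of -0.23 against -0.09 over all genes. No member passed the adjusted p in edgeR (0% of all genes), DESeq2 (0.162%) or voom (0%). In edgeR 2 members passed an unadjusted p under 0.05 against 7.98% of all genes. They were Cox6a2 at -6.95 (SE 2.90, unadjusted p = 0.0311, adjusted p = 0.564) and Ndufaf4 at -0.81 (SE 0.37, unadjusted p = 0.0468, adjusted p = 0.564). Ndufs1 stood at -0.61 (SE 0.40), Uqcrc1 at -0.67 (SE 0.42) and Atp5mpl, a small subunit of the membrane part, at -0.63 (SE 0.32). Without Lepob/+ replicate 4 the median turned to 0.06, with 62 above 0, and without WT replicate 3 it was -0.36. Voom gave a median of 0.00, with 47 above 0 and 43 below, and library totals one of -0.05, with 33 above and 57 below. The members at an unadjusted p under 0.05 were 5 without Lepob/+ replicate 1 (11.9% of all genes), 3 without Lepob/+ replicate 3 or SOD1G93A replicate 3 (5.25% and 16.2%), and 0 to 2 without any other library. Leaving out the library labelled SOD1G93A-Lepob/+ replicate 3, which went against its sex label, gave -0.22 here, -0.30 against Lepob/+, -0.05 against WT and 0.05 against SOD1G93A.

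The 13 subunits encoded in mitochondrial DNA did not follow the nuclear ones in every comparison. They took 4.81% to 8.48% of the counts, and the ratio of their summed counts to those of the nuclear members ran from 4.13 to 7.08 across the libraries. The ratio was 4.67 ± 0.623 (SD, n = 4) in WT, 5.47 ± 0.784 in Lepob/+, 5.91 ± 1.00 in SOD1G93A and 5.94 ± 0.795 with both mutations, with overlapping values. All 13 had a higher mean than in WT in the Lepob/+ group (median 0.59), the SOD1G93A group (0.30) and the group with both mutations (0.32), which were all set against the same WT libraries, and none passed the adjusted p. With both muscle-rich libraries left out the medians were 0.27, 0.38 and 0.39, again with 13 of 13 higher. Between SOD1G93A-Lepob/+ and Lepob/+ all 13 were lower, by a median of -0.29, and without Lepob/+ replicate 4, 11 of 13 were higher (0.08). At an unadjusted p under 0.05, 5 passed in Lepob/+ and 1 in SOD1G93A, against 4.37% and 2.56% of all genes. Without Lepob/+ replicate 4 the median in Lepob/+ was 0.17 and 0 passed, against 1.70% of all genes. The leading genes were mt-Nd5, a proton-pumping subunit of complex I, at 0.87 (SE 0.30) in Lepob/+, and mt-Atp6, the channel subunit of complex V, at 1.02 (SE 0.43) in SOD1G93A.

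Of the 13 TCA cycle genes, none passed the adjusted p in any comparison. In Lepob/+ against WT all 13 were higher, by a median of 0.42, and 1 passed an unadjusted p under 0.05 (4.37% of all genes), Suclg1, a subunit of succinyl-CoA ligase, at 0.67 (SE 0.30). Against Lepob/+, all 13 were lower with both mutations, by a median of -0.51, with 3 at an unadjusted p under 0.05 (8.24% of all genes). These medians without Lepob/+ replicate 4 were 0.08 (9 of 13 higher) and -0.10 (10 of 13 lower), and 0 passed in either comparison (1.70% and 6.15% of all genes).

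Of 15 regulators of mitochondrial biogenesis, none passed the adjusted p. In Lepob/+ against WT, 14 of 15 were higher by a median of 0.19, and in SOD1G93A-Lepob/+ against Lepob/+ 14 of 15 were lower by a median of -0.25. Ppargc1a, the coactivator that drives many genes of oxidative phosphorylation, was at 0.71 (SE 0.38) in the former and -1.09 (SE 0.38) in the latter (unadjusted p = 0.012). Gabpa, an ETS factor, was at 0.22 (SE 0.10) in SOD1G93A against WT (unadjusted p = 0.0462, adjusted p = 0.998). When Lepob/+ replicate 4 was left out, 10 of 15 were higher in Lepob/+ than in WT (median 0.11), and 11 of 15 were lower in SOD1G93A-Lepob/+ than in Lepob/+ (-0.16). In SOD1G93A against WT, 13 of 15 were higher (median 0.20), and in SOD1G93A-Lepob/+ against SOD1G93A, 13 of 15 were lower (-0.25). The mean log2 CPM of these regulators was 3.91, 3.81 and 3.81 in SOD1G93A replicates 1, 2 and 4, which had a high lymphocyte list. It was 3.58 in SOD1G93A replicate 3, 3.31 to 3.64 in WT and 3.14 to 3.71 with both mutations. The part of lymphocyte RNA in these values was not tested.

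Of 32 assembly factors of complexes II to V, 27 were higher in Lepob/+ than in WT, by a median of 0.14, and 26 were lower in SOD1G93A-Lepob/+ than in Lepob/+, by a median of -0.16, with none past the adjusted p. These became 13 of 32 higher and 16 of 32 lower without Lepob/+ replicate 4. Cox18, which inserts a subunit of complex IV into the membrane, was at 0.44 (SE 0.11) in SOD1G93A against WT (unadjusted p = 0.00177, adjusted p = 0.998). Sco2, a copper chaperone of complex IV, was at -0.85 (SE 0.29) in SOD1G93A-Lepob/+ against Lepob/+ (unadjusted p = 0.011, adjusted p = 0.597). Sdhaf1, an assembly factor of complex II, was at -0.38 (SE 0.13) in SOD1G93A-Lepob/+ against SOD1G93A (unadjusted p = 0.012, adjusted p = 0.261). Each had the smallest p of the list in its comparison. In these comparisons 2.56%, 8.24% and 16.5% of all genes passed an unadjusted p under 0.05.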

How the data were processed

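RNA of iWAT was sequenced in 16 libraries, 4 per genotype. The authors aligned filtered reads to mm10 with HISAT2 2.1.0 and assigned reads that mapped to 1 place to genes with featureCounts 2.0.2, as in the submitters' processing notes. The deposited values are raw read counts per Ensembl gene, without normalization. The strand setting and annotation release are not given in the sources used here, so antisense neighbours cannot be told apart. Members with near-identical pseudogene copies may have lost reads.

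Genes with low counts were removed with edgeR's filter (minimum count 10, total 15), which left 19736 genes. One model with 4 genotype means was fitted to all libraries by edgeR's quasi-likelihood test (edgeR 4.0.16, R 4.3.3, TMM factors 0.664 to 1.11), and p-values were adjusted by Benjamini-Hochberg over all genes. DESeq2 1.42.0 and limma voom 3.58.1 were alternatives. P-values measure the spread between these libraries, for which the sources give 4 mice per group. Log2 CPM used a prior count of 1. Lengths were those of GENCODE M21. Steps were tested on simulated data. Within each complex, the 2 members with the smallest p per comparison were named, besides subunits listed by role. The members and lists were chosen with earlier results of these data known. The alternative on library totals and the closer look at isoforms were added after the data were seen.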

Additional observations from a re-analysis of the deposited data

Results flagged for a closer look

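In 140 groups of 4 libraries (28 genes and 7 levels of complexes or of all members, each in 4 genotypes), a library stood apart from the other 3 by Dixon's test at 95% in 16 cases. Chance alone would give about 1 in 20 if the groups were independent. They share libraries and genes, so this rate cannot say whether 16 is more than chance. Of the 16, 11 were Lepob/+ replicate 4 and 2 were WT replicate 3, the libraries with the most muscle RNA.

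In Lepob/+ replicate 4, the mean log2 CPM of all members was 7.17, that of complex I 7.20, that of complex IV 6.78 and that of complex V 8.09. Among single genes it stood apart for Ndufb11 (228 CPM), Ndufaf5 (45.8 CPM), Cox5a (311 CPM), Ndufa4 (189 CPM), Atp5g1 (241 CPM) and Cox6a2 (575 CPM), each higher than in the other 3 Lepob/+ libraries, and for Cox6a1 (161 CPM), which was lower. The complex IV mean includes Cox6a2. Over only its 11 subunits used by most tissues, this library was at 7.82, against 7.35 to 7.49 for the other 3. In WT replicate 3, Cox6a2 (13.7 CPM) and Ndufa1 (92.8 CPM) stood above the other WT libraries. Ckm was at 26625 CPM in the former library and 713 CPM in the latter. The part of muscle RNA in these values was not tested.

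The remaining 3 cases lay in SOD1G93A. Ndufaf5 was at 9.50 CPM in replicate 3, Cox7a2l at 131 CPM in replicate 2 and Atp5g2 at 91.6 CPM in replicate 4. No member's effect was called different between mice with and without the other mutation.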

How the results depend on the processing

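The number of members past an adjusted p of 0.05 was 0 in every comparison and alternative run, except 4 in SOD1G93A-Lepob/+ against SOD1G93A under limma voom with quality weights, where 31.5% of all genes passed. Leaving out 1 library in turn kept it at 0, and moved the members' median from -0.04 to 0.40 in Lepob/+ against WT, from -0.22 to 0.05 in SOD1G93A against WT, from -0.03 to 0.13 in SOD1G93A-Lepob/+ against SOD1G93A, from -0.17 to 0.09 in SOD1G93A-Lepob/+ against WT, from -0.42 to -0.06 in SOD1G93A-Lepob/+ against Lepob/+ and from -0.36 to 0.06 in the interaction. Leaving out 1 library in turn gave, in Lepob/+ against WT, up to 1.20 for Ndufaf5, 0.47 for Sdhb, 6.94 for Cox6a2 and 1.51 for Atp5g1, in SOD1G93A against WT down to -0.31 for Sdhc and -0.22 for Sdhd, in SOD1G93A-Lepob/+ against WT down to -0.19 for Sdha, and in the interaction down to -8.82 for Cox6a2 and -1.49 for Atp5g1. Single log2 fold changes turned as follows. Without Lepob/+ replicate 4, in Lepob/+ against WT, Ndufaf5 was -0.061, Sdhb -0.035, Cox6a2 -3.36 and Atp5g1 -0.061, and in the interaction Cox6a2 was 1.47 and Atp5g1 0.079. Cox6a2 in Lepob/+ against WT was also -1.74 under voom and -1.46 with both muscle-rich libraries left out. In SOD1G93A against WT, Sdhc was 0.045 without WT replicate 3 and 0.038 without both, and Sdhd was 0.084 without WT replicate 3, 0.021 without SOD1G93A replicate 2, 0.0028 without SOD1G93A replicate 4 and 0.078 without both muscle-rich libraries. In SOD1G93A-Lepob/+ against WT, Sdhb was 0.025 and Sdha 0.092 under voom, and Sdha was 0.088 without WT replicate 3 and 0.085 without both. The causes were not tested.

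The labels number the replicates 1 to 4 in each genotype, but same-numbered libraries did not deviate in a common direction. Of 24 pairs, 5 had a correlation of deviations over 0.1 and 8 one under -0.1 (-0.69 to 0.52). For replicates 1 to 4, WT with SOD1G93A was at 0.41, 0.41, 0.52 and -0.31, and Lepob/+ with SOD1G93A at -0.11, -0.26, -0.69 and 0.09. With the replicate block, 0 members passed the adjusted p and the medians were 0.23 in Lepob/+ against WT, -0.08 in SOD1G93A against WT, 0.02, -0.06 and -0.30 in SOD1G93A-Lepob/+ against SOD1G93A, WT and Lepob/+, and -0.21 in the interaction, with 6 members at an unadjusted p under 0.05 against Lepob/+ in place of 12 (3.85% of all genes) and 1 in Lepob/+ against WT in place of 3 (2.1%). The interaction was not run on compared genotypes only, since it needs all 4.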
